A study of Mus musculus with 29 samples.

Results

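B cells of Eμ-myc transgenic mice were compared with B cells of wild-type mice, both taken from the spleen of young mice. The comparison holds 8 of the 29 libraries of the series, chosen by the genotype and tissue in their labels and not by any measured value. The 4 Tg_spleen libraries (replicates 2, 3, 4 and 5) come from C57BL/6 mice with the transgene. The 4 WT_spleen libraries (replicates 1, 3, 4 and 6) come from C57BL/6 mice without it. All were made from spleens of mice 6 to 8 weeks old, from which cells were drawn with magnetic beads against B220, the form of CD45 on B cells. Total RNA was depleted of ribosomal RNA and sequenced, and each library is a table of FPKM, fragments per kilobase of gene scaled to the depth of the library, for 21819 genes. The labels do not say whether each library is 1 mouse or a pool, so the p-values measure the spread between these libraries, part of which may be technical.

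Myc is a basic helix-loop-helix transcription factor that pairs with Max, binds the E-box CACGTG, and drives ribosome production, metabolism and entry into the cell cycle. In normal resting B cells it is low and rises briefly after antigen or mitogen. The Eμ-myc transgene places Myc under the enhancer of the immunoglobulin heavy chain, which is active throughout the B lineage. Young carriers are known for an excess of cycling B cell precursors, and later they develop clonal lymphomas. B220 is found from early progenitors in the bone marrow to naive B cells, so beads against it do not separate these stages. In bulk RNA such as this, fewer cells of a type and less RNA per cell cannot be told apart. FPKM is a share of each library, so a change in the total RNA of a cell is not seen.

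The files give no read counts. The spacing of their lowest values corresponds to about 9191190 to 15826500 reads on genes per library, so that 20 FPKM in a gene of 2 kb rests on 32.9 to 58.9 reads. The deposited FPKM are used as they stand. The denominators implied by that spacing, of 822000 to 1472000 reads, are far smaller than the reads on genes, so the levels compare across these libraries but not with FPKM from other work. By Rpph1, the RNA component of ribonuclease P, each genotype splits into a high and a low class. The high class, at 545353 to 735331 FPKM, is formed by replicates 1 and 3 of WT_spleen with 2 and 3 of Tg_spleen. The low class, at 153474 to 215865 FPKM, is formed by replicates 4 and 6 of WT_spleen with 4 and 5 of Tg_spleen. Each class holds 2 libraries of each genotype, and some differences are given below within each class, with 2 libraries against 2.

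Of 14021 genes with at least 1 FPKM in at least 4 of the 8 libraries, 27.9% were called at an adjusted p under 0.05, 15.7% as higher and 12.2% as lower in Tg_spleen. The groups did not overlap for 31.6% of all genes tested. Differences are of log2(FPKM + 0.5), Tg_spleen minus WT_spleen, so they understate changes of genes near 0. The median difference over all genes was -0.05, and that of the called genes was 0.94 for rises and -0.85 for falls. Rises of at least 8-fold numbered 53 and falls of that size 8. The share called higher grew with the level of the gene, from 6.17% to 25.1% between the lowest and highest of 5 equal bins of mean FPKM. The share called lower was 6.74% in the lowest bin and 12 to 14.8% in the others. Below, WT 1 stands for WT_spleen replicate 1, Tg 2 for Tg_spleen replicate 2, and so on. Leaving out any of 5 libraries moved a count by over 1.5 times. The higher count of 2206 became 1426 without WT 1 and 1343 without WT 4. The lower count of 1712 became 897, 1045, 813 and 1127 without WT 1, 3, 4 and 6 in turn, and 1045 without Tg 5. List counts that moved as much are given below with the libraries whose removal moved them. Where 0 members of a list rose or fell by limma's adjusted p, 0 did so at an unadjusted p under 0.05 as well, unless another count is given. Pairs of values read Tg_spleen first, in the order of replicates 2, 3, 4 and 5, against WT_spleen in the order 1, 3, 4 and 6, and a mean is given ± SD with n = 4. For each gene called and named under the rule, every Tg_spleen library lay beyond every WT_spleen library. The rankings of the largest rises and falls took only such genes, so for them this was fixed in advance.

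**Figure D1:**
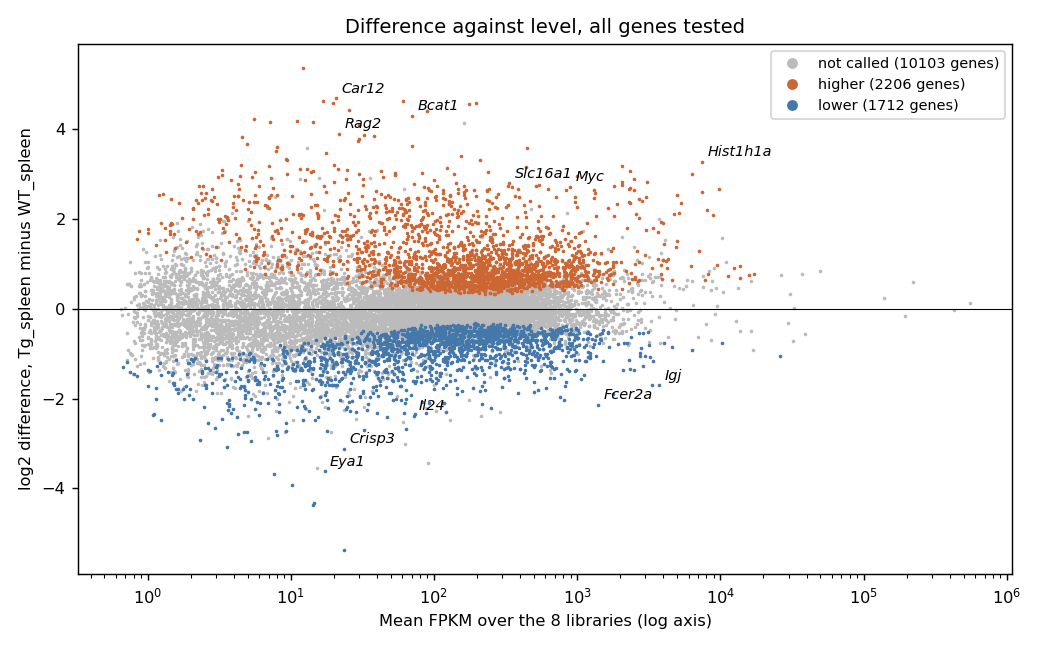
Each point is 1 of 14021 genes tested, placed by its mean FPKM over the 8 libraries (log axis) and its log2 difference, Tg_spleen minus WT_spleen. Genes called higher are orange (2206), genes called lower blue (1712) and the others grey, and a few genes described in the text are named.

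Myc itself stood at 227, 273, 215 and 191 FPKM in WT_spleen replicates 1, 3, 4 and 6. It stood at 1017, 1275, 2408 and 1525 FPKM in Tg_spleen replicates 2, 3, 4 and 5. The groups were far apart, and the lowest transgenic library was still above the highest wild-type one (log2 difference 2.72, SE 0.24, adjusted p = 0.000757). The difference was 2.19 in the high Rpph1 class and 3.24 in the low class. A single FPKM per gene does not separate the transgene's transcript from that of the mouse's own Myc locus. Among 14 tested partners and antagonists of Myc, 3 rose (1 without WT 4) and 1 fell (2 without Tg 2), against 15.7% and 12.2% of all genes tested, with a median log2 difference of -0.06, or -0.12 after quantile normalization. Those that rose bind Max in competition with Myc. Mxd3 was at 50.7, 49.5, 153 and 162 against 30.7, 34.9, 22.7 and 27.3 FPKM (1.62, SE 0.40, adjusted p = 0.0172). Mxi1 was at 69 ± 21 against 29.8 ± 3.93 FPKM (1.15, SE 0.23, adjusted p = 0.00814) and Mxd4 at 879 ± 151 against 585 ± 30.1 FPKM (0.57, SE 0.15, adjusted p = 0.0238). The call of Mxd3 was lost without WT 4 (adjusted p = 0.0549), and that of Mxd4 without WT 1, 3, 4 or 6 or Tg 3 or 5 (adjusted p = 0.053 to 0.0666). Mycl1, which encodes L-Myc, fell, with Tg_spleen at 2 to 5.3 and WT_spleen at 6.6 to 17.4 FPKM (-1.64, SE 0.38, adjusted p = 0.0137). Max, the common partner, was at 357 ± 11.4 against 321 ± 31.9 FPKM and did not pass (adjusted p = 0.328).

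The hexamer CACGTG, read on both strands, which for this palindrome are the same, was looked for in RefSeq promoters (GRCm38.p6, 250 bases before to 50 after the start) of 10809 tested genes. It occurred in 11.3% of tested genes, 12.6% of those called higher and 10.8% of those called lower, against 8.09% of the whole promoter table. Among genes changed at least 2-fold, 11.5% of those that rose and 7.95% of those that fell had it. A match says only that these letters are in the window. Among list members named below, 12 with the smallest adjusted p held it, 6 that rose and 6 that fell, and 4 of each are shown so that both directions can be seen, with the hexamer in capitals. The first 4 rose and the last 4 fell, while Ptprs and Dhx33, which rose, and Ddx25 and Mcoln1, which fell, are not shown.
Tyms, chr5:30073669-30073698, minus strand: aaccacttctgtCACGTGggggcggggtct
Timm9, chr12:71136716-71136745, minus strand: cctacattttccCACGTGgtaacgaatctg
Tfdp1, chr8:13338508-13338537, plus strand: gaggcgcgcacaCACGTGgcctctctccga
Ipo7, chr7:110018166-110018195, plus strand: gtgggagccagcCACGTGggccgtgtccgc
Bcl6, chr16:23988895-23988924, minus strand: cgtcacggagccCACGTGacggcggcggag
Tnfaip3, chr10:19015426-19015455, minus strand: cgccacgcgggtCACGTGactggaatttcc
Pik3ap1, chr19:41385257-41385286, minus strand: gctttcgggacaCACGTGgcacgagcaggg
Irak3, chr10:120201575-120201604, minus strand: ggctccctacgtCACGTGgggcccgccctg
The first hexamer in the window began 61 bases before the start in Tyms, 58 in Timm9 (of 2 there), 231 in Tfdp1 and 137 in Ipo7. It began 60 bases before the start in Bcl6, 33 in Tnfaip3 and 172 in Pik3ap1, and at base 6 after it in Irak3. A second pattern, TTGGCGC or TTCCCGC on either strand, which are forms of the site bound by E2F factors, differed more between directions. It stood in 19.2% of promoters of genes called higher and 10.4% of those called lower, against 13.5% of tested genes and 7.79% of the whole table. Among changes of at least 2-fold the shares were 22.4% and 6.36%.

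The steepest rises were in genes that were low in WT_spleen. Beside Car12, Nav2, Eps8l2, Ptgr1, Uchl1 and Ltbp4, the ranking held Nt5dc2, Bcat1, Rbm24, Ankrd13b, Rag2 and Tmem132e. Bcat1, the cytosolic aminotransferase of branched-chain amino acids, was at 5.5, 4, 4.2 and 6.1 FPKM in WT_spleen and 35, 83.4, 263 and 159.9 FPKM in Tg_spleen (4.30, SE 0.52, adjusted p = 0.00184). Nt5dc2, a member of the 5′-nucleotidase domain family, was at 45.4, 89.8, 322 and 231 against 12, 1.7, 7.6 and 6.3 FPKM (4.41, SE 0.67, adjusted p = 0.00351). Rbm24, an RNA-binding protein known from muscle, was at 0, 0.7, 0.6 and 1.1 FPKM in WT_spleen and 5.4, 20.6, 33.2 and 26.9 FPKM in Tg_spleen (4.18, SE 0.58, adjusted p = 0.00275). Ankrd13b, an ankyrin protein that binds ubiquitin, rose by 4.08 and Tmem132e, a membrane protein, by 3.87 (adjusted p = 0.00171 and 0.00594). Lowest in WT_spleen was Rbm24, with a mean of 0.6 FPKM, followed by Eps8l2 at 0.825 and Car12 at 1.025 FPKM. These levels are near 0, so the differences of all these genes depend on the added 0.5. Car12 differed by 4.61 and 4.77 in the high and low Rpph1 classes, while Uchl1 differed by 3.52 and 5.61 and Tmem132e by 2.38 and 5.36.

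The steepest falls were in genes of modest level in wild-type B cells, several of them surface or signalling genes. Eya1, a transcriptional coactivator and phosphatase, was at 37.4, 36.4, 27.6 and 27.2 FPKM in WT_spleen and 3.4, 3.1, 0.9 and 1.9 FPKM in Tg_spleen. Alcam, an adhesion molecule that binds CD6 on T cells, was at 108, 85.7, 109.6 and 133 FPKM in WT_spleen and 30.4, 18.2, 10 and 13.3 FPKM in Tg_spleen (-2.67, SE 0.31, adjusted p = 0.00167). Every transgenic library was below every wild-type library for both, as the ranking required. Dusp4, a phosphatase that switches off MAP kinases, fell from 88.1, 118, 106 and 98.3 FPKM to 28.3, 23.1, 16.3 and 14.8 FPKM (-2.33, SE 0.22, adjusted p = 0.00109). Hcrtr2, an orexin receptor, was at 4.62 ± 2.01 against 31.2 ± 4.45 FPKM (-2.73), and Lamb3, a laminin chain, at 4.25 ± 1.48 against 25.2 ± 4.14 FPKM (-2.48). St8sia6, a sialyltransferase, fell by 2.34 and Ptpn14, a tyrosine phosphatase, by 2.70 on the log2 scale (adjusted p = 0.00507 and 0.0109). Rgs13, a brake on G protein signalling in B cells, was at 5.6 to 22.6 against 45.9 to 124 FPKM (-2.40, SE 0.44, adjusted p = 0.00558), and Capns2, a calpain subunit, fell by 2.40. Il24, a cytokine of the IL-10 family, was at 41.8, 55.8, 6.8 and 11.5 against 138, 154, 89.6 and 80.2 FPKM (-2.38, SE 0.60, adjusted p = 0.0191), and its call was lost without Tg 5 (adjusted p = 0.0575). Cd209a, a lectin of dendritic cells, ranged over 1.5 to 5.5 against 7.3 to 35.2 FPKM (-2.47, SE 0.51, adjusted p = 0.00858).

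**Figure D2:**
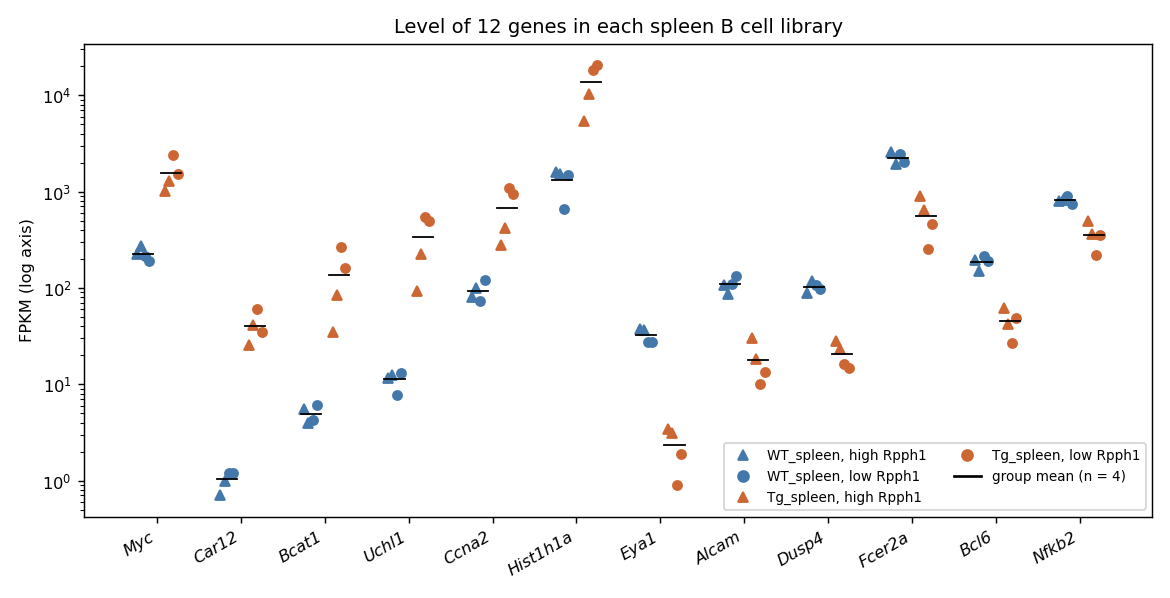
FPKM (log axis) of Myc, of 5 genes called higher and of 6 called lower in each of the 8 spleen libraries. Blue is WT_spleen, orange Tg_spleen, triangles and circles mark the high and low Rpph1 classes, and bars are group means (n = 4). No gene shown has overlapping groups, which the rankings of the largest rises and falls required of the genes taken from them. Within Tg_spleen the circles lie farther from WT_spleen than the triangles in most genes.

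Among abundant genes, with a mean of at least 500 FPKM in the higher group, the 10 largest rises were 9 linker and core histones and Slc16a1. Hist1h1a, a linker histone made during DNA synthesis, stood at 1598, 1527, 666 and 1475 FPKM in WT_spleen and 5444, 10262, 18405 and 20374 FPKM in Tg_spleen (3.27, SE 0.44, adjusted p = 0.00235). Histone genes of a cluster are close copies of each other, and reads shared between them may have been split or lost in the authors' counting. Slc16a1, which carries lactate and pyruvate across the membrane, was at 219, 396, 1037 and 739.8 against 62.8, 73.9, 64.7 and 92.7 FPKM (2.80, SE 0.41, adjusted p = 0.00338). The 10 largest falls included Icosl, Faim3, Rasgef1b and Pgap1. Icosl, the ligand of the T cell costimulator ICOS, was at 349 ± 173 against 1273 ± 166 FPKM (-2.03, SE 0.36, adjusted p = 0.00526), and Faim3, a receptor for the Fc part of IgM, at 1681 ± 669 against 4976 ± 243 FPKM (-1.69, SE 0.33, adjusted p = 0.0071). Rasgef1b, an exchange factor for Ras-family GTPases, was at 96.9 to 518 against 807 to 976 FPKM (-1.77), and Pgap1, which remodels GPI anchors, at 109 to 414 against 593 to 948 FPKM (-1.81).

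RNA polymerases I and III transcribe ribosomal and transfer RNA. Of 34 tested subunits and factors of RNA polymerases I and III, 14 rose and 0 fell (median log2 difference 0.43, against -0.05 over all genes). Polr1b, the second largest subunit of polymerase I, was at 338, 361, 527 and 465 FPKM in Tg_spleen against 164, 158, 177 and 213 FPKM in WT_spleen (1.23, SE 0.17, adjusted p = 0.00267). Polr1c, shared by both polymerases, was at 484 ± 78.7 against 267 ± 18.8 FPKM (0.84), and Taf1d, part of the promoter factor of polymerase I, at 1039 ± 46.5 against 547 ± 70.3 FPKM (0.93). Gtf3c4, a subunit of the polymerase III factor TFIIIC, was at 228 ± 42.6 against 121 ± 13.9 FPKM (0.90). Host genes whose introns carry small nucleolar RNAs, the guides for modifying ribosomal RNA, rose in 6 of 10 tested and fell in 0 (median 0.83). Gas5 was at 1344, 1542, 1479.5 and 1438 against 835, 888, 682 and 878 FPKM (0.83, SE 0.14, adjusted p = 0.00449). Snhg7 rose by 1.33, Snhg1 by 1.01 and Snhg6 by 0.98 (adjusted p = 0.00346, 0.00321 and 0.0046).

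Mitochondria translate a few proteins on their own ribosomes and import the rest. Of 76 mitochondrial ribosomal proteins, 50 rose (23 to 30 without WT 1 or 4 or Tg 5, and 8 and 56 within the high and low Rpph1 classes) and 0 fell, the difference was above 0 in all 76, and the median was 0.66. Mrpl12, which also binds the mitochondrial RNA polymerase, was at 440.2, 589, 875 and 752 FPKM in Tg_spleen against 227, 271, 207 and 285 FPKM in WT_spleen (1.39, SE 0.21, adjusted p = 0.00351). Mrpl19 was at 138 ± 28.2 against 72.9 ± 1.69 FPKM (0.90) and Mrpl15 at 178 ± 25.7 against 98 ± 9.38 FPKM (0.85). Of 29 genes of protein import, 17 rose (9 to 11 without WT 1 or 4 or Tg 5, and 5 and 17 within these classes) and 0 fell, with a median of 0.64. Timm9, a chaperone between the membranes whose promoter is shown above, had close values within each genotype, at 261, 275, 273 and 298 against 124, 146, 131 and 147 FPKM (1.01, SE 0.11, adjusted p = 0.00137). Chchd4, which oxidises imported proteins, was at 275 ± 53.7 against 102 ± 12.3 FPKM (1.42), and Tomm5, of the outer membrane pore, at 504 ± 125 against 202 ± 35.3 FPKM (1.30). The list medians in the high and low Rpph1 classes were 0.38 and 0.93 for the ribosomal proteins and 0.31 and 0.84 for import.

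The proteasome degrades tagged proteins, and its core exists in a constitutive and an immune form. Of 39 constitutive subunits and assembly factors, 32 rose (8 to 20 without WT 1, 3, 4 or 6 or Tg 4 or 5) and 0 fell, with a median of 0.70. Within the high and low Rpph1 classes 4 and 31 rose. Psmd8, of the regulatory cap, was at 1057, 1204, 1706 and 2050.5 against 580.4, 654, 473 and 705 FPKM (1.28, SE 0.23, adjusted p = 0.00511). Psmg1, a chaperone that assembles the core, was at 260.1 ± 82 against 108 ± 11.7 FPKM (1.22), and Psma5, a core subunit, at 238 ± 44.9 against 121 ± 26.3 FPKM (0.98). Of the 5 immunoproteasome genes, which interferon induces and which shape peptides for MHC class I, 0 rose and 0 fell by limma. Psmb8 was at 1451, 1447, 1266 and 1734 against 1517, 2102, 1388 and 1659.8 FPKM (-0.17, SE 0.18, adjusted p = 0.495) and Psme1 at 1562, 1287, 1339.7 and 1629 against 1104, 1328, 1186 and 1202 FPKM (0.27, SE 0.14, adjusted p = 0.185). The groups overlapped for Psmb8 and Psme1, the median of the 5 was 0.00 (-0.15 after quantile normalization), and the difference between the constitutive and immune sets was not tested. The chaperonin CCT, which folds actin, tubulin and other proteins, and prefoldin, which feeds it, rose in 11 of 14 and fell in 0 (median 1.01). Cct6a was at 1816, 2143, 2932 and 2839.5 against 970.4, 992, 852 and 1133 FPKM (1.28, SE 0.19, adjusted p = 0.00338), Cct3 rose by 1.22, Tcp1 by 1.25 and Pfdn4 by 1.03.

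The next lists cover steps between transcription and translation. Of 50 genes of the nuclear pore and its carriers, 25 rose (13 to 14 without WT 1, 3 or 4) and 0 fell, with a median of 0.51. Rcc1, which charges Ran with GTP, was at 215, 279.6, 658 and 399 against 101, 113, 104 and 106 FPKM (1.74, SE 0.29, adjusted p = 0.00424), and Kpna2, importin alpha, at 191, 296, 459 and 454 against 84.2, 102, 80.1 and 157 FPKM (1.69, SE 0.30, adjusted p = 0.00541). Ipo5 and Ipo7, importins that carry ribosomal proteins, rose by 1.42 and 1.06 (adjusted p = 0.00541 and 0.0036). Of 55 splicing factors, 28 rose (10 to 18 without WT 1, 3, 4 or 6 or Tg 4 or 5, and 5 and 22 within the high and low Rpph1 classes) and 0 fell, with a median of 0.59. Small proteins of the Sm ring were among them, with Snrpd1 at 511 ± 151 against 186 ± 40.7 FPKM (1.43), Snrpg higher by 0.97 and Snrpe by 0.84, while Hnrnpc rose by 0.66. Of 46 DEAD and DEAH box helicases, 12 rose (5 to 7 without WT 1, 3 or 4 or Tg 5) and 1 fell (3 without Tg 2), with a median of 0.24, or 0.13 after quantile normalization. Ddx21, a nucleolar helicase, was at 1133 ± 368 against 555 ± 62.4 FPKM (0.99), and Ddx1 and Dhx33 rose by 1.00 and 0.84. The helicase that fell, Ddx25, known from the testis, was at 6.6, 5.6, 1.4 and 4.5 against 20.2, 22.8, 20.2 and 18.5 FPKM (-2.21, SE 0.40, adjusted p = 0.00528).

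**Figure D3:**
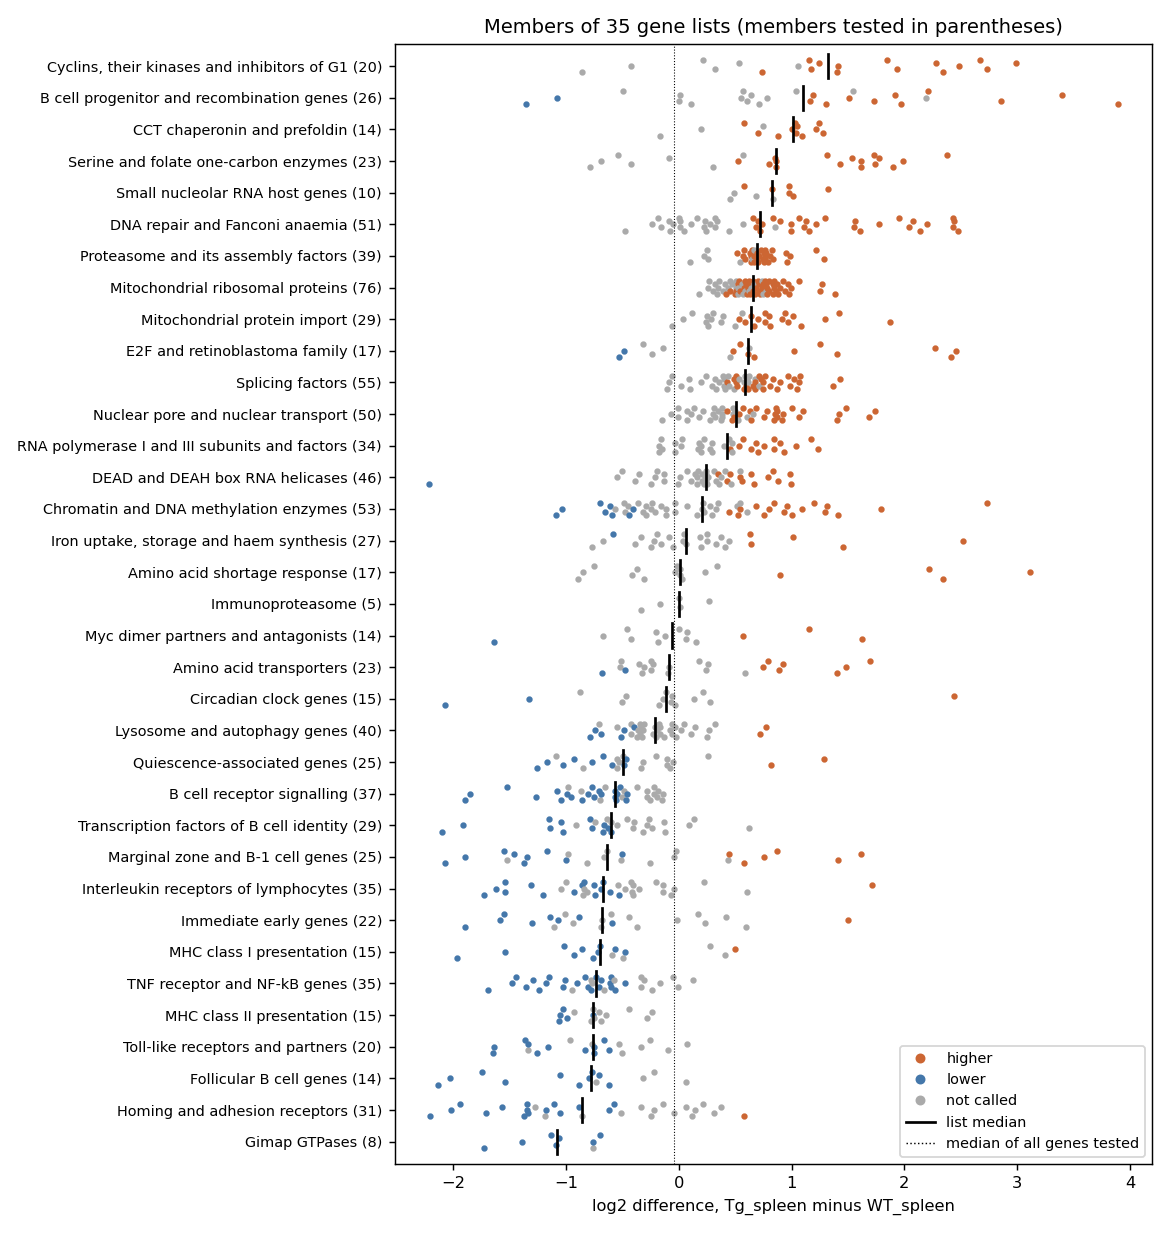
Log2 difference, Tg_spleen minus WT_spleen, of every tested member of 35 gene lists, ordered by list median (black bars). Orange members were called higher and blue ones lower, and the dotted line is the median of all genes tested (-0.05). Growth, division and repair lists lie to the right, while signalling, presentation, homing and Gimap lists lie to the left.

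Genes that carry cells from G1 into DNA synthesis had the highest median of the 35 lists, 1.32. Of 20 tested, 14 rose and 0 fell (1 without Tg 2 or 5, and 2 at an unadjusted p under 0.05). Ccna2, the cyclin of S phase and G2, was at 80.4, 99, 72.7 and 122 FPKM in WT_spleen and 276, 422, 1077 and 940.5 FPKM in Tg_spleen (2.67, SE 0.40, adjusted p = 0.00346). Cdk1, the kinase of mitosis, was at 119.9, 194, 456 and 369.7 against 34.6, 43.9, 27.1 and 46.8 FPKM (2.73, SE 0.38, adjusted p = 0.00286). Ccne2, a partner of Cdk2, rose by 2.28 and Cdc25a, a phosphatase that activates these kinases, by 1.40 (adjusted p = 0.00215 and 0.00192). Among D cyclins, which start G1 progress, Ccnd1 was called higher (1.85), while Ccnd2 (-0.86, adjusted p = 0.104) and Ccnd3 (0.53, adjusted p = 0.159) did not pass. Inhibitors of the INK4 group were among the rises, with Cdkn2b higher by 1.94 and Cdkn2c by 1.25. Their calls were lost without WT 1, 4 or 6 or Tg 4 or 5 (adjusted p = 0.0574 to 0.0909) for Cdkn2b and without WT 4 or Tg 4 or 5 (adjusted p = 0.0517 to 0.059) for Cdkn2c.

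E2F factors, which control genes of DNA synthesis, were listed with their DP partners, the retinoblastoma family and Lin genes. Of these 17, 10 rose (5 to 6 without WT 4 or 6) and 2 fell (0 to 1 without WT 1, 3, 4 or 6 or Tg 3, 4 or 5), with a median of 0.62. Tfdp1, the shared partner DP1, was at 292, 382, 900.4 and 549 FPKM in Tg_spleen against 81.7, 108, 105 and 109 FPKM in WT_spleen (2.27, SE 0.30, adjusted p = 0.00233). The repressor-type members E2f7 and E2f8 rose by 2.42 and 2.46, and the activator E2f2 by 1.41 (adjusted p = 0.005, 0.00485 and 0.0037). The pair that fell were Rb1 and Rbl2, the retinoblastoma protein and a relative that restrain E2F, by 0.53 and 0.48. Their calls were lost without WT 1, 3 or 4 or Tg 3, 4 or 5 (adjusted p = 0.0659 to 0.109) for Rb1 and without WT 1, 4 or 6 or Tg 5 (adjusted p = 0.0542 to 0.0722) for Rbl2. Of 51 DNA repair and Fanconi anaemia genes, 28 rose and 0 fell (1 without Tg 2, and 1 at an unadjusted p under 0.05), with a median of 0.72. Exo1, a DNA exonuclease, was at 51.3, 77.8, 177 and 129 against 15.8, 19.5, 14.8 and 20.9 FPKM (2.44, SE 0.35, adjusted p = 0.00286). Rad54b, of homologous recombination, was at 90.5 ± 39.4 against 15.2 ± 2.57 FPKM (2.43), and Brip1, a helicase that works with Brca1, at 105 ± 50.8 against 20.9 ± 3.75 FPKM (2.20). Fanca, of the Fanconi core complex, had close values within each genotype, at 153, 149, 171 and 151 against 70.2, 80.8, 86.7 and 75.9 FPKM (0.99, SE 0.12, adjusted p = 0.00187). The E2F forms described above stood in 46.2% of the 39 promoters found for the repair list.

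Chromatin enzymes moved both ways, with 32.1% called higher and 15.1% lower, against 15.7% and 12.2% of all genes tested. The share that fell is thus close to that of all genes. More genes tied to rest fell than rose. Of 53 chromatin and DNA methylation enzymes, 17 rose (10 without WT 4) and 8 fell (4 to 5 without WT 1, 3, 4 or 6 or Tg 3, 4 or 5), with a median of 0.21, or 0.13 after quantile normalization. Uhrf1, which brings the maintenance methyltransferase to copied DNA, was at 329, 577, 1691 and 1081 against 97.1, 117, 116 and 131 FPKM (2.74, SE 0.42, adjusted p = 0.0036). Hells, a remodeller for DNA methylation, rose by 1.79, Setd8, which methylates histone H4, by 1.41, and Prmt5, an arginine methyltransferase, by 1.32. Of 25 genes associated with quiescence, 2 rose and 9 fell (5 without WT 4), with a median of -0.49. Klf7 was at 65.5 ± 22.9 against 150.1 ± 9.63 FPKM (-1.26, SE 0.23, adjusted p = 0.00576) and Klf3 at 200.3 ± 26.1 against 318 ± 14.9 FPKM (-0.67, SE 0.12, adjusted p = 0.00598), both Krüppel-like factors. Another of that family, Klf9, rose, at 55.2, 50.6, 56.8 and 48.2 against 25.2, 31.9, 18.6 and 13.6 FPKM (1.29, SE 0.25, adjusted p = 0.00757), as did Tob1, an antiproliferative protein (0.82, SE 0.18, adjusted p = 0.0107).

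The nutrient lists differed in how many members were called. Of 23 enzymes and carriers of serine and folate metabolism, which supply carbon for nucleotides, 16 rose and 0 fell (1 without WT 3 or Tg 2, and 2 at an unadjusted p under 0.05), with a median of 0.86. Shmt1, which splits serine into glycine and a folate-bound carbon, was at 254, 366, 639 and 556 against 112, 124, 108 and 113 FPKM (1.89, SE 0.25, adjusted p = 0.00239). Phgdh, the entry to serine synthesis, was at 426 ± 119 against 154 ± 24 FPKM (1.43), Gcsh, of glycine cleavage, rose by 1.77, and Tyms by 2.37. Of 23 amino acid transporters, 7 rose and 2 fell (0 to 1 without WT 1, 3 or 4 or Tg 3 or 5), with a median of -0.08, or 0.04 after quantile normalization. The pair that fell were the peptide and histidine transporters Slc15a3 (-0.48) and Slc15a4 (-0.68), lost without WT 1, 3 or 4 or Tg 3 or 5 (adjusted p = 0.0632 to 0.0925) and without WT 1, 3 or 4 or Tg 5 (adjusted p = 0.0536 to 0.0703) in turn. Slc7a5, the large neutral amino acid carrier, was at 161, 161, 410.4 and 194 against 68.4, 77.2, 90.4 and 70.2 FPKM (1.48, SE 0.28, adjusted p = 0.00626), with Tg_spleen replicate 4 high above the other 3. Slc7a6 rose by 0.92, Slc36a4 by 0.89 and Slc1a4, which was at 5 to 5.2 FPKM in WT_spleen, by 1.69. Slc3a2, the partner chain of Slc7a5, did not pass (-0.33, SE 0.17, adjusted p = 0.176).

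Of 17 genes of the amino acid shortage response, 4 rose (2 without WT 1 or 3 or Tg 4 or 5) and 0 fell (1 without Tg 2, and 1 at an unadjusted p under 0.05), with a median of 0.01, or 0.04 after quantile normalization. The share that rose was 23.5%, against 15.7% of all genes tested. The 4 that rose were Cth (3.11, SE 0.44, adjusted p = 0.00286), Asns (2.34, SE 0.36, adjusted p = 0.00351), Stc2 (2.22) and Gpt2 (0.90), of which the first makes cysteine and the second asparagine. Asns was at 50.3, 67.3, 168 and 117 against 15.7, 16.1, 14.4 and 25.3 FPKM. Calls of Stc2, at 0, 0, 0.5 and 0.5 FPKM in WT_spleen, were lost without WT 1, 3 or 4 or Tg 4 or 5 (adjusted p = 0.0549 to 0.0786), and those of Gpt2 without WT 1, 3 or 6 or Tg 4 or 5 (adjusted p = 0.0517 to 0.0675). The transcription factors of this response did not pass, with Atf4 at 0.01 (adjusted p = 0.946) and Ddit3 at -0.37 (adjusted p = 0.0651). Of 27 iron and haem genes, 5 rose (3 without WT 1, 3, 4 or 6 or Tg 4 or 5) and 1 fell (0 without WT 1, 3, 4 or 6 or Tg 3, 4 or 5 and 3 without Tg 2), with a median of 0.07, or 0.03 after quantile normalization. That share of rises is close to the 15.7% of all genes tested. Tfrc, the transferrin receptor, was at 495, 586, 1001 and 818 against 278, 224, 234 and 283 FPKM (1.46, SE 0.21, adjusted p = 0.00325) and Steap3, which reduces iron in the endosome, at 24.3, 43.5, 113 and 40.5 against 10, 9.2, 5.4 and 7.4 FPKM (2.52, SE 0.42, adjusted p = 0.00434). Slc11a2, which carries iron out of that endosome, passed with all 8 libraries (0.63, SE 0.19, adjusted p = 0.0367) and not without WT 1, 3, 4 or 6 or Tg 4 or 5 (adjusted p = 0.0514 to 0.0896). Abcb10, a mitochondrial transporter, fell by 0.58, and its call was lost without WT 1, 3, 4 or 6 or Tg 3, 4 or 5 (adjusted p = 0.0544 to 0.115). The ferritin chains Fth1 (-0.22) and Ftl1 (-0.25) did not pass (adjusted p = 0.549 and 0.391).

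The B cell receptor signals through kinases, adaptors and exchange factors. Of 37 tested genes, 0 rose and 21 fell (10 to 12 without WT 1, 3 or 4 or Tg 5), the difference was below 0 in all 37, and the median was -0.57. Within the high and low Rpph1 classes 5 and 15 fell. Vav3, an exchange factor for small GTPases, was at 57.8, 44.3, 27.4 and 32.6 FPKM in Tg_spleen against 113, 114, 121 and 104 FPKM in WT_spleen (-1.52, SE 0.22, adjusted p = 0.00315). Pik3ap1, the adaptor BCAP of PI 3-kinase signalling, was at 629, 572, 543 and 438 against 1232, 1126, 1227 and 919 FPKM (-1.05, SE 0.16, adjusted p = 0.00351). Rasgrp3, which activates Ras, was at 382, 251, 97.5 and 202 against 811, 655, 841 and 727 FPKM (-1.85, SE 0.34, adjusted p = 0.00576). Tg_spleen replicate 2 stood nearest to WT_spleen in all 3. Nfatc1, a transcription factor that calcium signals release into the nucleus, fell by 1.26 (adjusted p = 0.00666). Of the receptor's own chains, Cd79a fell by 0.55 (lost without WT 1, 3 or 4 or Tg 3 or 5, adjusted p = 0.0525 to 0.0875), and Cd79b was at 11622, 11133, 8476 and 15376 against 14382, 13441, 12098 and 15692 FPKM with no call (-0.28, SE 0.23, adjusted p = 0.386). Btk (-0.28) and Syk's adaptor Blnk (-0.18) also did not pass (adjusted p = 0.325 and 0.375). Ptprc, the gene of B220 and all other CD45 forms, was at 4887, 3869, 1919 and 2962 against 5886, 5783, 5664 and 5952 FPKM (-0.85, SE 0.27, adjusted p = 0.0401), a call lost without WT 1, 3, 4 or 6 or Tg 3 or 5 (adjusted p = 0.0522 to 0.0913).

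Among 29 transcription factors of B cell identity, 0 rose (1 without Tg 2, and 1 at an unadjusted p under 0.05) and 12 fell (6 without WT 1 or 4), with a median of -0.60. Bcl6, a repressor of germinal centre B cells, was at 194, 149, 216 and 191 FPKM in WT_spleen and 62.3, 42.3, 26.8 and 48.3 FPKM in Tg_spleen (-2.10, SE 0.24, adjusted p = 0.00157). Mef2b, which activates Bcl6, was at 8.2, 5.4, 5.1 and 7.6 against 28.8, 15.1, 20.6 and 48.2 FPKM (-1.91, SE 0.36, adjusted p = 0.0061). Mef2c, which acts in proliferation after receptor signals, was at 608 ± 185 against 1216 ± 56.9 FPKM (-1.05), and Runx1 fell by 0.78. Of the core factors of the lineage, Pax5 fell by 0.63 (lost without WT 1, 3 or 4 or Tg 3 or 5, adjusted p = 0.052 to 0.0956), while Ebf1 (-0.40, adjusted p = 0.122), Ikzf1 (-0.13, adjusted p = 0.503) and Irf4 (0.09, adjusted p = 0.629) did not pass.

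Genes of follicular B cells, the main recirculating type, rose in 0 of 14 and fell in 10 (5 without WT 1, 4 or 6), with a median of -0.78. Fcer2a, which encodes CD23, was at 2585, 1919, 2483 and 2006 FPKM in WT_spleen and 891, 644, 252 and 459 FPKM in Tg_spleen (-2.13, SE 0.33, adjusted p = 0.0036). Il4ra, the receptor chain for IL-4, was at 487, 391, 195 and 395 against 966, 973, 1046 and 1069.5 FPKM (-1.54, SE 0.25, adjusted p = 0.00381), and Satb1, a chromatin organiser, at 229, 147, 76.2 and 126 against 470.1, 366, 515 and 466 FPKM (-1.75, SE 0.28, adjusted p = 0.00386). Genes of marginal zone and B-1 cells, the innate-like types, were divided. Of 25 tested, 6 rose (2 to 3 without WT 1 or Tg 3) and 9 fell (1 to 5 without WT 1, 3, 4 or 6 or Tg 4 or 5), with a median of -0.63. The shares were 24% and 36%, against 15.7% and 12.2% of all genes tested. Within the high and low Rpph1 classes 2 and 3 rose, and 1 and 13 fell. Bhlhe40, a repressor also counted with the clock genes, was at 48.7, 39, 18.6 and 24.8 against 151, 112, 127 and 134 FPKM (-2.07, SE 0.28, adjusted p = 0.00235). Cr2, complement receptor CD21, was at 1723, 1152, 265 and 471 against 2601, 2365, 3121 and 2453 FPKM (-1.89, SE 0.50, adjusted p = 0.0213), and its call was lost without WT 1 or 4 or Tg 5 (adjusted p = 0.0518 to 0.0626). Dtx1, of the Notch pathway, fell by 1.17 with a call lost without WT 4 (adjusted p = 0.0558). Lgals1, galectin-1, was at 378, 595, 1049 and 1141 against 252, 287, 135 and 309 FPKM (1.62, SE 0.37, adjusted p = 0.0131), and Nid1, a basement membrane protein, at 181, 135, 95.9 and 108 against 46.2, 33.6, 55.8 and 56.7 FPKM (1.41, SE 0.24, adjusted p = 0.00433). The list medians in the high and low Rpph1 classes were -0.53 and -1.13 for follicular and -0.26 and -0.99 for marginal zone and B-1 genes.

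The NF-kB pathway, which tumour necrosis factor receptors such as CD40 and the BAFF receptor feed, rose in 0 of 35 tested genes and fell in 22 (10 to 13 without WT 1, 3, 4 or 6), with a median of -0.73. Nfkb2, the precursor of the alternative pathway, was at 805, 826, 894 and 737 FPKM in WT_spleen and 499, 362, 220.4 and 350 FPKM in Tg_spleen (-1.24, SE 0.22, adjusted p = 0.00507). Its partner Relb was at 197, 149, 81.2 and 152 against 281, 395, 349 and 341 FPKM (-1.29, SE 0.24, adjusted p = 0.00632). Both showed no overlap between genotypes. Tnfaip3, the deubiquitinase A20 that restrains the pathway, was at 107 ± 42.6 against 273 ± 22.8 FPKM (-1.44, SE 0.27, adjusted p = 0.00665), and Bcl3, an atypical inhibitor, at 51.2 ± 17.9 against 138 ± 21.7 FPKM (-1.48, SE 0.25, adjusted p = 0.00453). The falls thus held transcription factors and inhibitors of the pathway together, and receptors, with Cd40 lower by 1.02 (lost without WT 1, 3 or 4 or Tg 5, adjusted p = 0.0648 to 0.0684). Toll-like receptors and their partners rose in 0 of 20 and fell in 11 (5 to 7 without WT 1, 3 or 4), with a median of -0.76. Tlr1 was at 478, 379.5, 149.7 and 318 against 855, 706, 812 and 770.4 FPKM (-1.36, SE 0.30, adjusted p = 0.0116), and Irak2 and Irak3 fell by 1.63 and 1.25. Tlr12 was at 8.9 to 14.7 against 26.3 to 47.4 FPKM (-1.65). The adaptor Myd88 did not pass (-0.10, adjusted p = 0.579).

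Of 35 interleukin receptors and their kinases and Stat factors, 1 rose and 15 fell (23 without Tg 2), with a median of -0.67. The 1 that rose was Socs2, an inhibitor of cytokine signalling (1.72, SE 0.40, adjusted p = 0.0132). Il5ra, known from B-1 cells, was at 166, 139, 71.6 and 98.6 against 321, 276, 280.5 and 253 FPKM (-1.31, SE 0.24, adjusted p = 0.00539), Il10rb fell by 0.93 and Stat3 by 0.75 (adjusted p = 0.00518 and 0.00846). Antigen presentation genes were among the falls. Of 15 MHC class II genes, 0 rose and 5 fell (2 to 3 without WT 1, 3, 4 or 6 and 10 without Tg 2), with a difference below 0 in all 15 and a median of -0.76, or -1.21 after quantile normalization. Ciita, the master activator of class II, was at 1204, 828, 477 and 678 against 1609, 1447, 1854 and 1432 FPKM (-1.07, SE 0.26, adjusted p = 0.0152). H2-Ob and H2-Oa, the chains that restrain peptide loading in B cells, were at 1989 ± 612 against 3984 ± 588 and 661 ± 256 against 1246 ± 38.2 FPKM, and H2-Eb2 fell by 0.99. The other was H2-Ab1, the beta chain of the class II molecule itself (-0.76, SE 0.25, adjusted p = 0.047, lost without WT 1, 3, 4 or 6 or Tg 3 or 5, adjusted p = 0.0689 to 0.105). The calls were lost without WT 4 (adjusted p = 0.0507) for H2-Ob and without WT 1, 3, 4 or 6 (adjusted p = 0.0595 to 0.0735) for H2-Oa. Of 15 MHC class I genes, 1 rose and 10 fell (3 to 6 without WT 3 or 4 or Tg 3 or 4), with a median of -0.70. H2-M3, a class I molecule for bacterial peptides, was at 572, 447, 249.5 and 398 against 731, 860, 830.3 and 824 FPKM (-1.02, SE 0.22, adjusted p = 0.0112). H2-Q6 and H2-Q7 fell by 1.97 and 1.54, but these are near-identical copies, so their separate values are uncertain. Erap1, which trims peptides for class I, rose by 0.50 (adjusted p = 0.0148).

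The list of homing and adhesion genes holds the lymphotoxin genes Ltb and Lta beside receptors and integrins, and not only genes of B cells. Of 31 tested, 15 fell (5 to 9 without WT 1, 3, 4 or 6 or Tg 4 or 5) and 1 rose (0 without WT 1, 3 or 4 or Tg 2, 3, 4 or 5 and 2 without WT 6), with a median of -0.86. The 1 that rose was Itgam, an integrin chain of myeloid and B-1 cells (0.58, SE 0.18, adjusted p = 0.0369), lost without WT 1, 3 or 4 or Tg 2, 3, 4 or 5 (adjusted p = 0.0609 to 0.0932). Ltb, a lymphotoxin chain that maintains follicles, was at 1796, 1591, 565 and 1683 against 3187, 3722, 3044 and 3157 FPKM (-1.35, SE 0.34, adjusted p = 0.0178), with Tg_spleen replicate 4 far below the other 3. Lta, its soluble partner, was at 43.6, 29.3, 7.7 and 29.4 against 90, 76.9, 148 and 82 FPKM (-2.02, SE 0.46, adjusted p = 0.0131). Cxcr7, a scavenger of the chemokine Cxcl12, was at 10.6, 9.7, 3.2 and 2.9 against 32.3, 45.9, 27.3 and 14.8 FPKM (-2.21, SE 0.48, adjusted p = 0.0109). Ccr9, also a marker of plasmacytoid dendritic cells, fell by 1.34. The receptor Cxcr4, which holds progenitors in the marrow, did not pass (0.12, SE 0.33, adjusted p = 0.806). Gimap GTPases, which support lymphocyte survival, had a median of -1.08, with 0 of 8 higher and 7 lower (4 without WT 1, 3, 4 or 6). Gimap8 was at 662, 496, 148 and 376 against 1269.5, 1091, 1228 and 1313 FPKM (-1.73, SE 0.38, adjusted p = 0.0111), Gimap5 at 174 ± 51.1 against 369 ± 20.2 FPKM (-1.13, SE 0.20, adjusted p = 0.00474), and Gimap1 fell by 0.76. Gimap3 fell by 1.38, with a call lost without WT 4 (adjusted p = 0.0509).

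The last pathway lists cover the early stimulus response, the clock and the lysosome. Of 22 immediate early genes, which receptor signals switch on within minutes, 1 rose and 8 fell (5 without WT 1, 3 or 6 or Tg 5), with a median of -0.68. Egr3 was at 89.7, 79.9, 34.9 and 45 against 209, 311, 271 and 124 FPKM (-1.89, SE 0.35, adjusted p = 0.0062), and Egr1 at 39.9, 42.6, 24 and 16.8 against 114, 124, 77.8 and 53.1 FPKM (-1.59, SE 0.35, adjusted p = 0.0113). Dusp6, a feedback phosphatase of ERK, fell by 1.30, and Zfp36, which destabilises cytokine messages, by 1.07. The 1 that rose was the nuclear receptor Nr4a2, at 9.38 ± 3.84 against 2.8 ± 0.455 FPKM (adjusted p = 0.0127). This list also differed between libraries of WT_spleen, where its mean log2 level was 6.71, 7.17, 6.29 and 6.03 in replicates 1, 3, 4 and 6. Of 15 clock genes, 1 rose and 2 fell (median -0.12), against 15.7% and 12.2% of all genes tested. Nr1d1, the repressor Rev-erb alpha, was at 8.3, 14.6, 13.3 and 9.5 FPKM in WT_spleen and 46.3, 49.8, 91.4 and 73.2 FPKM in Tg_spleen (2.44, SE 0.28, adjusted p = 0.00157). It overlaps Thra on the opposite strand, and whether the counting used strand is not given in the sources used here. Per2, a repressor of the clock, was at 18.5, 17.2, 14.3 and 10 against 32.1, 38.1, 44.2 and 36.3 FPKM (-1.33, SE 0.23, adjusted p = 0.005). Arntl, the activator that pairs with Clock, did not pass (0.28, SE 0.16, adjusted p = 0.209), and the time of day of sampling is not in the labels. Of 40 lysosome and autophagy genes, 2 rose and 6 fell (2 to 3 without WT 1, 3, 4 or 6 or Tg 3 or 4 and 10 without Tg 2), with a median of -0.21, or -0.34 after quantile normalization. The share that fell is close to the 12.2% of all genes tested. The lysosomal cholesterol carriers Npc1 and Npc2 moved apart, by -0.74 and 0.72 (adjusted p = 0.0135 and 0.0155). Gusb, a lysosomal glucuronidase, rose by 0.78, and Mcoln1, a lysosomal calcium channel, fell by 0.69.

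Genes of B cell progenitors rose in 11 of 26 (7 without Tg 5) and fell in 2 (1 without WT 1, 3, 4 or 6 or Tg 3, 4 or 5), with a median of 1.10. Rag1, which cuts antigen receptor genes for recombination, was at 53.5, 37.1, 12.9 and 10 FPKM in WT_spleen and 90.8, 293, 442 and 299 FPKM in Tg_spleen (3.40, SE 0.63, adjusted p = 0.0069). Its partner Rag2 was at 3.2, 1.4, 1.8 and 0.8 FPKM in WT_spleen and 7.5, 30.3, 76.8 and 53.3 FPKM in Tg_spleen (3.89, SE 0.65, adjusted p = 0.00428). Tg_spleen replicate 2 was the lowest transgenic library for both. Ptprs, a receptor phosphatase, was at 199, 251, 420.4 and 302 against 64.1, 67.7, 84.3 and 71.7 FPKM (1.97, SE 0.21, adjusted p = 0.00132), and Bcl7a, a subunit of a chromatin remodeller, at 325, 457, 819 and 617 against 222, 239, 206 and 185 FPKM (1.30, SE 0.25, adjusted p = 0.00678). Among relatives of the surrogate light chain, Vpreb3 rose (1.19, SE 0.38, adjusted p = 0.0414, lost without WT 1, 3, 4 or 6 or Tg 3, 4 or 5, adjusted p = 0.0507 to 0.108), while Vpreb1 (1.55, SE 0.77, adjusted p = 0.153) and Igll1 (2.19, SE 1.00, adjusted p = 0.126) did not pass. Il7r, the receptor early progenitors depend on, did not pass either (0.61, SE 0.35, adjusted p = 0.218). The pair that fell, Kit and Flt3, are receptors of the earliest progenitors, and Flt3 is also a dendritic cell gene, at 25.3, 18.4, 7.9 and 18 against 26.4, 26.8, 41 and 48.7 FPKM with a call lost without WT 1, 3, 4 or 6 or Tg 3, 4 or 5 (adjusted p = 0.0641 to 0.12). The list median was 0.18 in the high and 2.00 in the low Rpph1 class, and in WT_spleen itself Rag1 was higher in replicates 1 and 3, of the high class, than in 4 and 6. With that class as a covariate, limma called 2615 genes higher and 2195 lower over all genes tested. All 180 calls of genes named under the rule were kept. Whether the difference between genotypes itself differs between the classes was not tested.

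Markers of B cells and of other cells that may be among those the beads drew were counted in the same fit, in which 15.7% of all genes tested rose and 12.2% fell. No marker of any list was at 0 in all 8 libraries. Of 10 B cell markers, 0 rose and 5 fell (1 to 3 without WT 1, 3, 4 or 6 or Tg 3 or 5): Cd79a, Ptprc, Pax5, Cd22 and Bank1. Their summed level was 48475 to 53920 FPKM in WT_spleen and 28178 to 44202 FPKM in Tg_spleen. Ms4a1, which encodes CD20, was at 8753, 7285, 4091 and 8729 against 9758, 7955, 7455 and 9963 FPKM with no call (-0.34, SE 0.27, adjusted p = 0.374). NK cell markers rose in 0 of 12 and fell in 10 (5 to 6 without WT 1, 3 or 6 or Tg 5), and their sum was 615 to 1049 FPKM in WT_spleen and 73.7 to 513 FPKM in Tg_spleen. Klrd1, a receptor of NK cells, was at 49.7, 24.6, 7.4 and 25.5 against 84.1, 103, 77.1 and 128 FPKM (-2.10, SE 0.47, adjusted p = 0.0117), and Ncr1, their defining receptor, at 57.5, 34, 8.3 and 26.9 against 88.4, 102, 64.7 and 124 FPKM, with a call lost without WT 1, 3 or 6 or Tg 5 (adjusted p = 0.0549 to 0.0584). T cell markers fell in 3 of 16 (7 without Tg 2), namely Cd8b1, Cd28 and Lck, with Lck at 79.9 ± 18.5 against 183 ± 23.1 FPKM (-1.22, SE 0.19, adjusted p = 0.00351), and their sum was 1933 to 2373 FPKM in WT_spleen and 1191 to 1883 FPKM in Tg_spleen.

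Plasma cell genes fell in 7 of 11 (1 to 3 without WT 3, 4 or 6 or Tg 3 or 5) and rose in 1 (0 without WT 1, 3, 4 or 6 or Tg 4 or 5), with Igj, the joining chain of secreted antibody, at 3064, 1820.4, 1151 and 1334 against 5496, 5464, 4681 and 6771 FPKM (-1.70, SE 0.29, adjusted p = 0.00471). The 1 that rose was Slamf7, a receptor of plasma and NK cells (0.84, SE 0.25, adjusted p = 0.0328, lost without WT 1, 3, 4 or 6 or Tg 4 or 5, adjusted p = 0.0645 to 0.0863). Plasma cell markers summed to 7437 to 10229 FPKM in WT_spleen and 3857 to 5739.9 FPKM in Tg_spleen. Plasmacytoid dendritic cell markers fell in 5 of 10 (3 without WT 4), rose in 0 (1 without WT 3, and 1 at an unadjusted p under 0.05) and summed to 5228 to 7848 FPKM in WT_spleen and 2969 to 5206 FPKM in Tg_spleen, of which Ly6d, also a B cell gene, made the larger part. The falls were Siglech, Ccr9, Tcf4, Klk1 and Pacsin1, of which Tcf4 was lost without WT 1 or 4 (adjusted p = 0.0625 to 0.0646). Other dendritic cell markers fell in 3 of 9 (1 without WT 3, 4 or 6 or Tg 3, 4 or 5 and 6 without Tg 2), namely Cd209a, Flt3 and Zbtb46, and summed to 158 to 351 FPKM in WT_spleen and 69.8 to 180.4 FPKM in Tg_spleen. Macrophage and monocyte markers fell in 1 of 15 (0 without WT 3, 4 or 6 or Tg 5 and 4 without Tg 2), the chemokine receptor gene Ccr2 (lost without WT 3, 4 or 6 or Tg 5, adjusted p = 0.0502 to 0.0615), and summed to 4979 to 8804 FPKM in WT_spleen and 2612 to 6798 FPKM in Tg_spleen, with C1qa at 1134, 931, 315 and 772 against 838, 1704, 643 and 1135 FPKM. Neutrophil markers had 0 calls among 11 by limma (1 without Tg 2, and 1 in each direction at an unadjusted p under 0.05), with S100a9 at 365, 296, 62.3 and 358 against 559, 399, 62.2 and 67.2 FPKM, low in WT_spleen replicates 4 and 6 and Tg_spleen replicate 4. Erythroid markers fell in 1 of 11 (3 without WT 1), Car2 (-1.33, SE 0.24, adjusted p = 0.00546). Megakaryocyte markers had 0 calls among 8 by limma (2 without Tg 2), and of 8 stroma and endothelium markers only Pecam1 fell (-0.80, SE 0.17, adjusted p = 0.0109), a gene that B cells also express. NK, dendritic, T cell and monocyte markers recur in the lists above: Il2rb with the interleukin receptors, Ccr2 and Ccr9 with the homing and adhesion genes, and Flt3 with the progenitors. The part of such cells in the falls of those lists was not tested.

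The transgenic libraries were spread more widely than the wild-type ones. The SD of log2 values over 4 libraries had a median of 0.219 in WT_spleen and 0.343 in Tg_spleen, and it was the larger in Tg_spleen for 69.7% of genes. Called genes showed an order among Tg_spleen libraries. For genes called higher, the median distance from the WT_spleen mean was 0.57, 0.79, 1.29 and 1.14 (log2) in replicates 2, 3, 4 and 5. For genes called lower it was -0.50, -0.73, -1.14 and -0.98. Replicate 4 lay farthest from WT_spleen in 63.3% of genes called higher and 60.5% of those called lower, and replicate 2 nearest in 75.5% and 72.1%. Myc was also highest in replicate 4 and lowest in replicate 2. Replicates 4 and 5 are the low Rpph1 class, whose wild-type members are WT_spleen replicates 4 and 6. Within the high class limma gave 935 higher and 540 lower genes, and within the low class 1975 and 1413, with 2 libraries against 2 in each. Within Tg_spleen, that class and the distance from WT_spleen cannot be told apart.

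**Figure D4:**
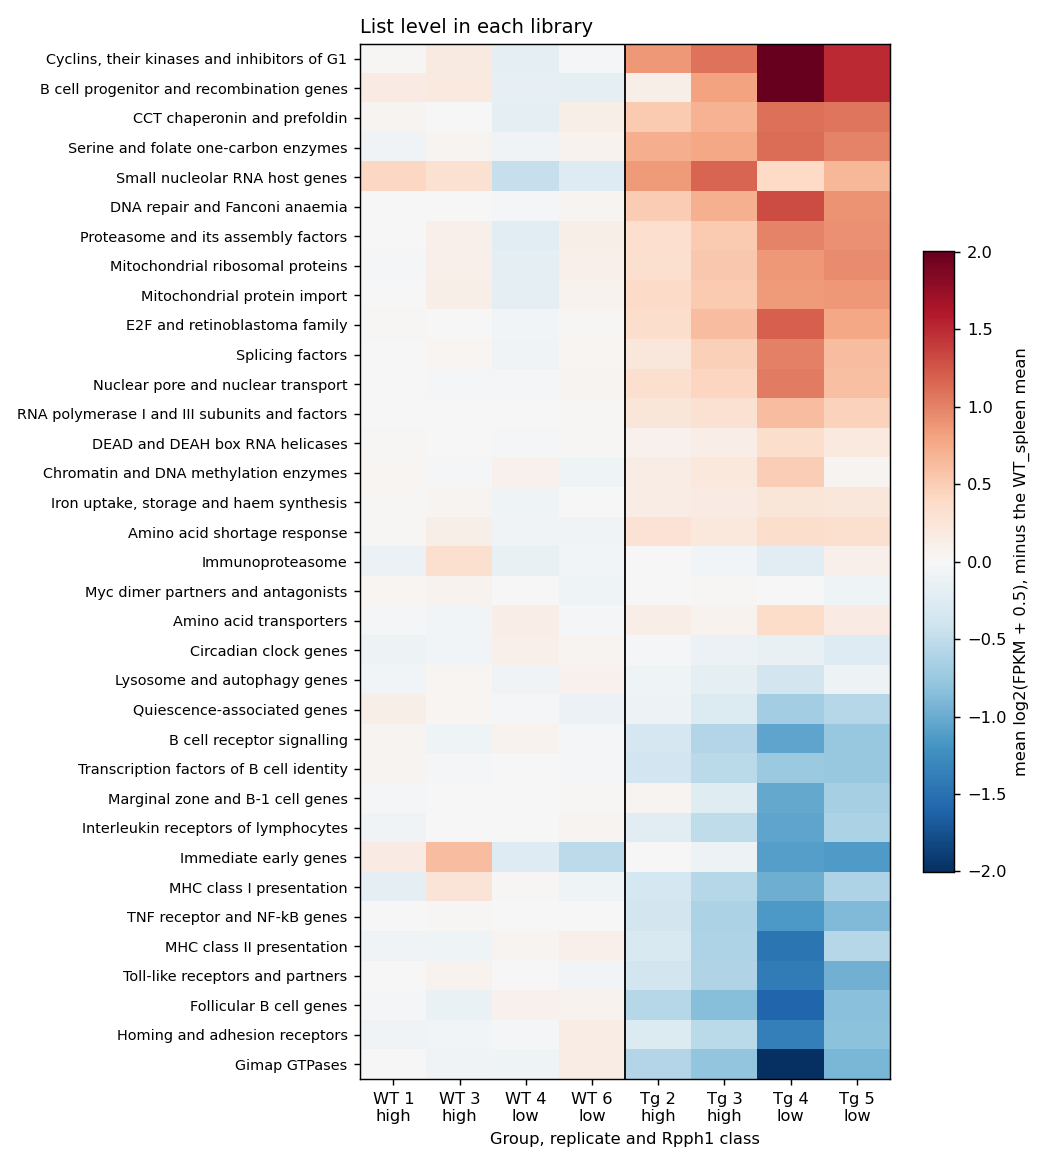
Mean log2(FPKM + 0.5) of each list in each spleen library, minus its WT_spleen mean. Red is above and blue below that mean, and columns carry group, replicate and Rpph1 class. In Tg_spleen replicates 4 and 5 most lists lie farther from WT_spleen than in replicates 2 and 3, while small nucleolar RNA host genes and immediate early genes also vary among WT_spleen libraries.

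Some abundant genes stayed level beside these changes. Of 1043 genes with a mean of at least 500 FPKM in both groups, 665 were not called, which does not by itself make them level. The share called among the 1043 was above the 27.9% of all genes tested. For 201 of the 1043 the 95% confidence interval of the log2 difference lay within 0.5 of 0. Among those with the tightest intervals were Dpp8, Ppp6r3, Casp8 and Ggnbp2. Dpp8, a dipeptidyl peptidase of the cytosol, was at 557, 581, 565 and 517 FPKM in Tg_spleen and 574, 545, 554 and 567 FPKM in WT_spleen, with an interval of -0.26 to 0.23. Casp8, the initiator caspase of death receptors, was at 691, 647, 559.8 and 693 and 690.2, 616, 626 and 647 FPKM, with an interval of -0.27 to 0.28. Ppp6r3, a regulatory subunit of protein phosphatase 6, was at 612, 536, 625 and 567 and 647, 538, 558 and 589 FPKM, with an interval of -0.26 to 0.28. For each of these the genotypes overlapped.

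Levels in 3 Tg_lymphnode libraries, tumour cells pressed from lymph nodes of transgenic mice and not enriched with beads, are set beside these values with no test, since tissue and purification differ too. Myc was at 2123, 2179 and 1759 FPKM there, within the range of Tg_spleen, and Bcat1 at 236, 253 and 89.3 FPKM. Car12 was at 165, 176 and 332 FPKM, above Tg_spleen. Rbm24 was listed at 0 in all 3. Rag1 was at 171, 93.7 and 21.8 FPKM and Rag2 at 39.8, 39.3 and 0.7 FPKM. Fcer2a was at 86.6, 122 and 40.7 FPKM and Bcl6 at 11, 14.2 and 20.7 FPKM, both below every Tg_spleen library.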

How the data were processed

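RNA was measured in 8 spleen B cell libraries. The authors deposited 1 FPKM value per gene and library, per the file headers. The submitters' processing notes name the mouse build mm9, TopHat2 2.0.8, TopHat, SAMtools and HTSeq 0.5.3p9, with no role given. Genes with at least 1 FPKM in at least 4 of the 8 libraries were compared on log2(FPKM + 0.5) with limma 3.58.1 (R 4.3.3; trend and robust variance), a library being 1 replicate, and p-values were Benjamini-Hochberg adjusted over all 14021 genes. The script was tested on simulated data. Python 3.11.15, pandas 2.3.3, NumPy 2.4.6 and Matplotlib 3.10.9 made summaries and plots.

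The lists and members were chosen with earlier results of these data known. Genes were named by rule: Myc, the 12 largest rises and falls of at least 20 FPKM, the 10 largest of at least 500 FPKM, up to 4 members of each list with the smallest adjusted p (2 where none was called), up to 3 markers with the highest level, and the 5 steadiest genes. Rankings left out predicted genes, small RNAs and receptor segments. The largest rises and falls were taken only from called genes whose groups did not overlap. Other members are named after their values were seen, and a few genes under the rule are not reported here. Promoters and coordinates are RefSeq's on GRCm38.p6, not the authors' build, and 10809 of 14021 genes matched by symbol.

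The files give no counts. Depth was read from the spacing of low values, 83.2 to 88% of which lay within 0.25 read of a whole number, and intervals from it were not formed. The 21 alternatives covered pseudocount, filter, scaling, weights, samples fitted, block, Rpph1 class and each left-out library.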

Additional observations from a re-analysis of the deposited data

Results flagged for a closer look

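Among 422 groups of 4 libraries checked for the genes named above, 19 held 1 library set apart from the other 3 by Dixon's test, about the 1 in 20 that chance gives. The test weighs the gap against the range of the 4, so a small gap can be flagged. Each is given as that library's FPKM beside the range of the other 3.

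In WT_spleen the histone genes Hist1h1a and Hist1h1b stood apart in the same library, at 666 FPKM (WT_spleen replicate 4) beside 1475 to 1598 and at 712 FPKM (WT_spleen replicate 4) beside 1444 to 1545. E2f2 and E2f8 were low there as well, at 209 FPKM (WT_spleen replicate 4) beside 231 to 235 and 18.1 FPKM (WT_spleen replicate 4) beside 24.3 to 25.2, and Mcoln1 was high, at 193 FPKM (WT_spleen replicate 4) beside 139 to 147. Tfdp1 was at 81.7 FPKM (WT_spleen replicate 1) beside 105 to 109. Mrps28 was at 184 FPKM (WT_spleen replicate 3) beside 130.5 to 134 and Psmg3, an assembly factor of the proteasome, at 76.9 FPKM (WT_spleen replicate 3) beside 69.7 to 70.6. Tcp1 was at 1026 FPKM (WT_spleen replicate 6) beside 764 to 803, Ddx1 at 405 FPKM (WT_spleen replicate 6) beside 306 to 322, Asns at 25.3 FPKM (WT_spleen replicate 6) beside 14.4 to 16.1 and Slc1a4 at 5 FPKM (WT_spleen replicate 6) beside 5.2 to 5.2. The gap of Slc1a4 is smaller than 0.446 FPKM, the worth of 1 read at 2 kb in that library.

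In Tg_spleen, 6 of the 7 cases were replicate 4, the library farthest from WT_spleen in most called genes. Transporters were high there, with Slc7a5 at 410.4 FPKM (Tg_spleen replicate 4) beside 161 to 194 and Slc11a2 at 131 FPKM (Tg_spleen replicate 4) beside 77.8 to 81.9, as was Ipo7 at 1698 FPKM (Tg_spleen replicate 4) beside 1089 to 1166. Mxd4 was at 653 FPKM (Tg_spleen replicate 4) beside 938 to 968, Ltb at 565 FPKM (Tg_spleen replicate 4) beside 1591 to 1796 and the dendritic cell marker Itgax at 16.2 FPKM (Tg_spleen replicate 4) beside 49.7 to 56.3. The other case was Clec9a, also a dendritic cell marker, at 73.3 FPKM (Tg_spleen replicate 5) beside 18.4 to 26.1.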

How the results depend on the processing

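Under the 21 alternatives, no called gene named under the rule changed direction (180 genes, 179 with a filter of 5 FPKM). Beyond 1.5 times, the counts of 2206 higher and 1712 lower genes became 575 and 265 with a replicate block, 935 and 540 within the high Rpph1 class, 790 lower with all 3 B cell groups in the fit (1586 higher) and 3413 lower with array weights (3246 higher), and the cause was not tested, save that the class leaves 4 of the 8 libraries and the block draws on the 4 with shared numbers. Leaving out 1 library gave 1343 to 2679 higher and 813 to 2405 lower. In all, 29 counts over all genes stayed within 1.5 times and 13 did not. Quantile normalization left 50.3% of the calls higher, against 56.3% as reported. The share was 66.8% with all 3 groups, 68.5% with the block and 63.4% within the high class. Of the 180 calls, the block lost 73, the high class 42, the 3 groups 29 and the low class 10, while another scaling or pseudocount lost at most 2. Of 1932 list counts, 1614 stayed within 1.5 times. Among 31 named genes that were not called, 16 changed sign in 63 cases. Replicates 3 and 4 occur in both groups, and their deviations from the group means correlated at 0.128 and 0.136. Among pairs with other numbers only WT 6 with Tg 5 was higher, at 0.259, and the rest ran from -0.157 to 0.116. The labels do not say that a shared number marks a pair, so the main fit left the libraries unpaired. Low values rest on few reads: 1 read at 2 kb is worth 0.34 to 0.608 FPKM.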
